A study of Mus musculus with 6 samples.

Results

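The transcripts described here are the nuclear long noncoding RNAs Malat1, Neat1, Kcnq1ot1 and Meg3, together with Lars2, Gm15564 and Gm23935, 3 genes grouped with them as rRNA-like transcripts. They are 7 of the 28327 genes with a row in the single-cell tables, were found by row name, and all 7 also had a row in both bulk tables. They were selected on levels measured in these cells, in part as transcripts that mark a podocyte subset, so their levels in that subset are given as a description. Their p-values across cell types come from these same cells and are not independent of that choice. The study profiled renal glomeruli, the filtering units of the kidney, from 8-week-old male CD1 IGS outbred mice. For Drop-seq, glomeruli were dissociated and the cells fixed in 80% methanol/PBS (4 libraries, replicates 1 to 4). Each cell is enclosed in a droplet with a bead whose barcoded primers bind poly(A), and each transcript is counted once by its unique molecular identifier (UMI). 1 bulk library was made from sorted cells of dissociated glomeruli, fixed in the same way (95 ng of total RNA), and 1 from whole glomeruli that were isolated live and not fixed (500 ng), both of polyadenylated RNA with a kit that marks the strand. No label ties the Drop-seq replicates to separate animals, so the p-values given here reflect variation among libraries that could be technical.

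Malat1 is an abundant noncoding RNA retained in nuclear speckles, bodies rich in splicing factors. Neat1 is the scaffold of paraspeckles, nuclear bodies that hold RNA-binding proteins and edited RNAs, and has a short polyadenylated and a long isoform. Kcnq1ot1 is transcribed from the paternal chromosome, antisense to the potassium channel gene Kcnq1, and silences imprinted neighbours such as Cdkn1c, a cell cycle inhibitor that podocytes carry at high levels. Meg3 is the maternally expressed noncoding RNA of another imprinted cluster. Lars2 encodes the mitochondrial leucyl-tRNA synthetase. Gm15564 and Gm23935 are known here by their annotation alone.

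In the GENCODE annotation of mouse build GRCm38, which may differ from the one behind the counts, Malat1 (chr19:5795690-5802672) and Neat1 (chr19:5824708-5845478) are long intergenic noncoding genes on the minus strand. Kcnq1ot1 is an antisense gene inside Kcnq1 (chr7:143203458-143296549, minus strand), Meg3 an intergenic noncoding gene (chr12:109541001-109571726, plus strand), and Lars2 a protein-coding gene (chr9:123366927-123462666, plus strand). Gm15564 is an antisense gene that overlaps Parp9 and Kpna1 without sharing exons (chr16:35966752-35983230, minus strand). Gm23935 is annotated as a miRNA gene of 57 bases in an intron of Zc3h7a, on the opposite strand (chr16:11144125-11144181, plus strand). It is shown here because it led the podocyte subset described below and has a near-identical copy, Gm24187 (chr13:9834469-9834525, minus strand), so reads could be split between both or dropped as not unique. Positions count from 1 at the 5′ end, the single difference is G11A (Gm23935 to Gm24187), and the capital marks it.
Gm23935: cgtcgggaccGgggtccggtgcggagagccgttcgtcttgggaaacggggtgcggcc
Gm24187: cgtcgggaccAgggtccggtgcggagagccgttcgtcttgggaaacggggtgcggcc
The G and C share of the Gm23935 sequence is 73.7%. Lars2, Gm15564 and Gm23935 gave no match among 361 rRNA-annotated or rRNA-related sequences of the same annotation, and Kcnq1ot1 matched the rRNA gene Gm22586 over 56 bases at most. 28S rRNA was not among the sequences searched, so the name rRNA-like could not be checked against it, and the 3 genes are called by their symbols here. The longest run of bases that any pair of the 3 shares is 10, between Lars2 and Gm15564.

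Both assays selected RNA with A stretches, and the members differ in the stretches that their annotated sequences hold. The longest run of A is 41 bases in Kcnq1ot1, starting at base 69565 of 93092, a length that 0.0325% of 55445 genes reach. It is 16 bases in Meg3, 12 in Malat1 (bases 6674 to 6685 of 6983), 11 in Lars2, 7 in Neat1, 4 in Gm15564 and 3 in Gm23935. The longest runs of Malat1 and Kcnq1ot1 are shown with 15 bases on each side, in the sense of the transcript, and the capitals mark the run.
Malat1: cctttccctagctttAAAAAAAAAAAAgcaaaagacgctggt
Kcnq1ot1: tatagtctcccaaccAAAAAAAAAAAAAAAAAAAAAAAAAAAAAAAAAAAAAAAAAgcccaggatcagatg
Priming at these runs was not tested.

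The Drop-seq tables held 15465 barcodes and 18557558 UMIs, from 3528543 to 6411775 UMIs in a library. Of the barcodes, 13993 passed the minimum of 300 genes and the maximum of 20% mitochondrial UMIs, with a median of 965 UMIs. Mitochondrial UMIs are those of 29 genes named mt-, which include the mitochondrial rRNAs mt-Rnr1 and mt-Rnr2. In all, 15 barcode sequences stood in more than 1 library, 3 of them among the kept cells. Clusters made without the 7 members and without the gene lists used below (markers excepted) were named from marker genes. They gave 10468 podocyte-like cells (74.1% ± 5.32 of the kept cells, SD, n = 4 libraries), 1854 endothelial-like, 931 tubular-like, 370 parietal epithelial-like, 320 mural-like and 50 immune-like cells, the last too few to test. Mural-like joins mesangial, smooth muscle and renin cell markers. The podocyte-like clusters, with all 8 markers detected, had 0 markers among their 10 leading genes. The parietal epithelial-like cluster rested on 4 detected markers of 6, with 1 among its 10 leading genes. The larger endothelial-like cluster (1727 cells, 3 markers among its 10 leading genes) had a marker score of 0.859 for endothelial and 1 for red blood cells. The smaller one (127 cells) had 0 markers among its 10 leading genes. Named by marker UMIs alone, 7 cells were red blood cell-like. No doublet caller was run, and 1647 cells held at least 2 UMIs of markers of each of 2 types. Each level below is a CPM value: UMIs of the gene per 1000000 UMIs summed over a type in 1 library.

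Malat1 was the most abundant member in Drop-seq and its level hardly set the cell types apart. It stood at 17578, 14847, 18831 and 16925 CPM in podocyte-like cells of replicates 1 to 4, and at 20238, 15706, 25504 and 20368 CPM in mural-like ones. Among parietal epithelial-like cells it ranged between 16024 and 18604 CPM, in endothelial-like cells between 13331 and 18435, and in tubular-like cells between 11497 and 15049. Replicate 2 was lowest and replicate 3 highest in each of these 5 types, and neighbouring types in the order of the means overlapped. Within each library tubular-like cells held the lowest level of the 5 types. With each type set against the mean of the other 4 in edgeR's quasi-likelihood test, the log2 fold change of Malat1 lay between -0.08 (SE 0.0765, adjusted p = 0.428) in tubular-like and 0.15 (SE 0.0771, adjusted p = 0.167) in mural-like cells. It passed the threshold in none of the 5 types. DESeq2 gave 0.27 (adjusted p = 3.87e-05) in mural-like and -0.13 (adjusted p = 0.0393) in podocyte-like cells. Scaled to total UMIs alone it was -0.38 in tubular-like cells, where the median of all genes was then -0.36, and 0.33 in mural-like cells, where that median was 0.05. With no filter on low counts it was 0.40 in podocyte-like cells (median of all genes 0.53) and -0.25 in parietal epithelial-like cells (median -0.38). Without replicate 2 the mural-like value was 0.22 (adjusted p = 0.0464), and with types from marker UMIs alone the endothelial-like value was -0.17 (adjusted p = 0.0465). A Malat1 UMI was found in 99.8% of podocyte-like cells, and in 99.4% of the 9812 that could be thinned to 500 UMIs. No type lacked it, so no order was read from these shares.

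Kcnq1ot1 set podocyte-like and tubular-like cells apart. Podocyte-like cells held it at 559.5, 547, 697 and 574 CPM in replicates 1 to 4. Tubular-like cells held it at 82.5, 97.5, 118 and 69.7 CPM. Endothelial-like cells lay between 296 and 393 CPM and mural-like cells between 252 and 554 CPM. The podocyte-like and tubular-like values did not overlap with each other in any library, and tubular-like cells were below every other tested type. Kcnq1ot1 was higher in podocyte-like cells than in the mean of the other types by 1.14 on the log2 scale (SE 0.0961, edgeR's quasi-likelihood test, adjusted p = 1.75e-17, higher in 4 of 4 libraries). In tubular-like cells its log2 fold change was -1.86 (SE 0.1501, adjusted p = 7.64e-19, lower in 4 of 4). Thinned to 500 UMIs, 17.2% ± 2.15 of podocyte-like and 3.39% ± 1.16 of tubular-like cells had a Kcnq1ot1 UMI (SD, n = 4), and podocyte-like cells were the shallower ones, with library medians of 833 to 1156 UMIs, against 1215.5 to 2079 in tubular-like cells. Parietal epithelial-like cells were split: 228, 682, 362 and 618 CPM in replicates 1 to 4. Their log2 fold change of 0.60 (SE 0.159, adjusted p = 0.00404) was past the threshold with 2 libraries above the mean of the other types and 2 below, and was -0.28 (adjusted p = 0.353) against all other kept cells summed. It was 0.29 (adjusted p = 0.351) without replicate 2 and 0.41 (adjusted p = 0.129) without replicate 4, the libraries with the higher values, and 0.40 (adjusted p = 0.211) with a mitochondrial limit of 10%. In the comparison with all other kept cells, 10468 of those cells are podocyte-like.

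Neat1 followed another order, with the highest means in tubular-like and podocyte-like cells among the tested types. Tubular-like cells held 754, 273, 409 and 457 CPM and podocyte-like cells 504, 335, 419.8 and 539 CPM. Mural-like cells held 257, 126, 158 and 143 CPM, on no more than 25 UMIs in a library. The mural-like values lay below those of podocyte-like cells in every library. The log2 fold change was 1.05 (SE 0.109, adjusted p = 6.78e-14, edgeR) in tubular-like, 0.70 (SE 0.0974, adjusted p = 3.42e-09) in podocyte-like and -1.21 (SE 0.209, adjusted p = 2.14e-06) in mural-like cells, in each case with the same direction in 4 of 4 libraries. In endothelial-like cells, at 148 to 362 CPM, it was -0.30 (SE 0.126, adjusted p = 0.0448), and that call was lost in 8 of 17 alternatives, with adjusted p up to 0.222, among them the omission of any 1 replicate (-0.31 to -0.27). The 50 immune-like cells held 34 Neat1 UMIs, 587 to 1237 CPM in a library, and were not tested. Meg3 had 3 UMIs in all kept cells, 1 each in podocyte-like, endothelial-like and mural-like cells. None fell in tubular-like cells, where 3 UMIs would make 1.42 CPM, so no difference between types was detectable at this depth.

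**Figure D1:**
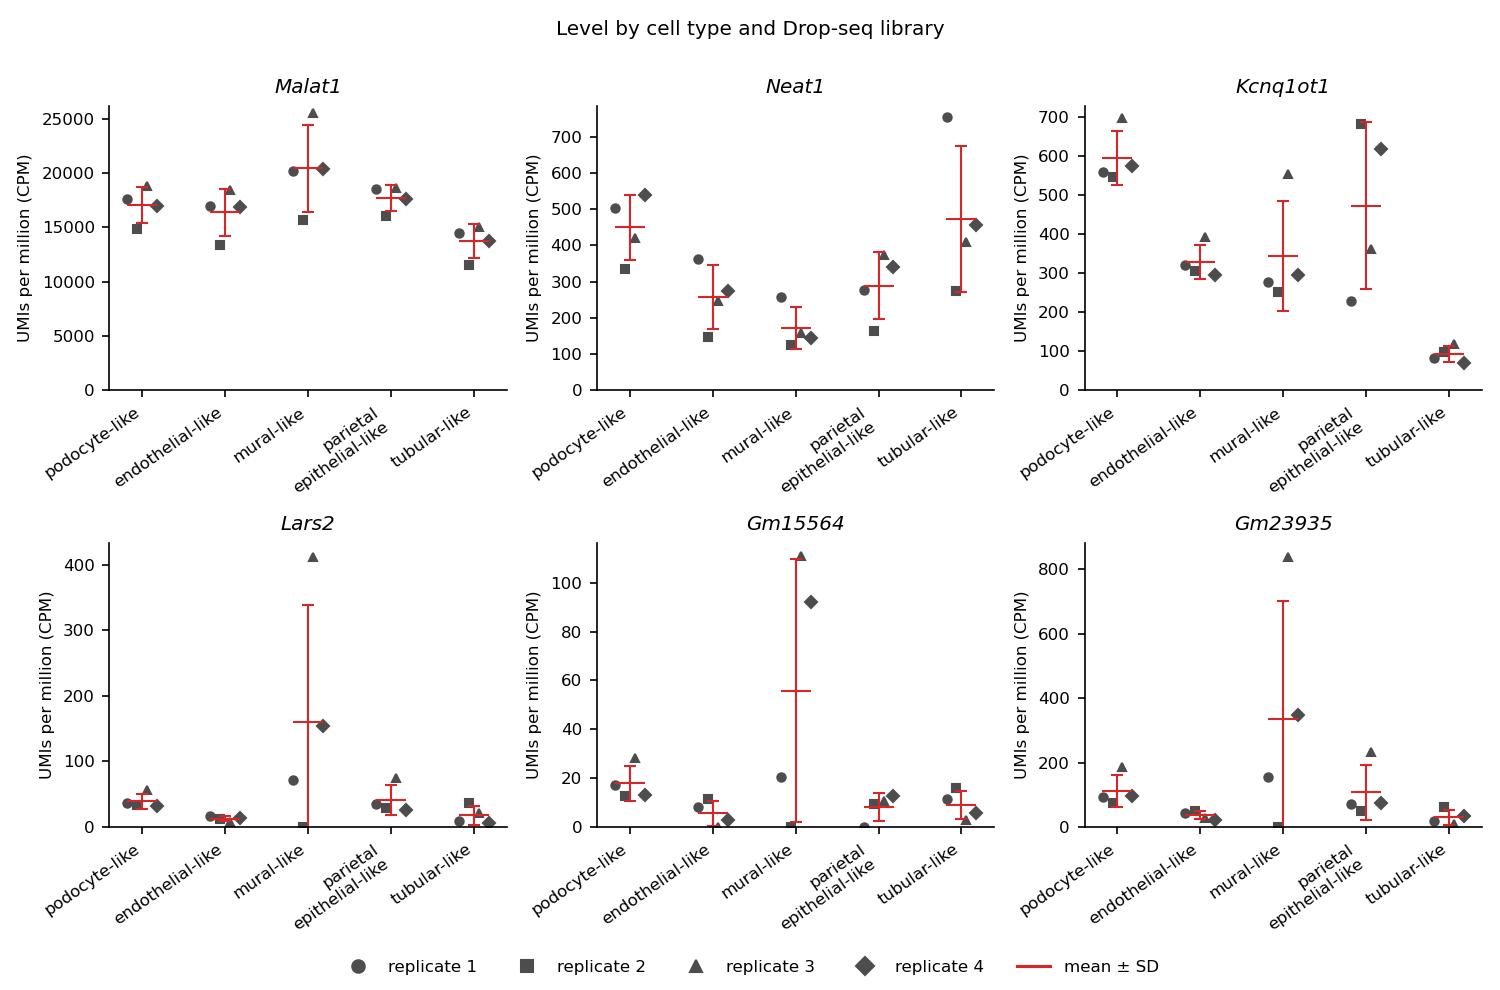
Level of 6 transcripts (CPM, linear axes from 0) in 5 marker-named cell types. Each symbol is 1 Drop-seq library and the red marks give the mean and SD of 4 libraries, with bars clipped at 0. Kcnq1ot1 is lowest in tubular-like cells (69.7 to 118 CPM), and the mural-like means of Lars2, Gm15564 and Gm23935 rest on replicates 3 and 4.

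Lars2, Gm15564 and Gm23935 were scarce in summed cells, with 621, 267 and 1613 UMIs among 13993 kept cells. In mural-like cells Gm23935 stood at 154, 0, 839.6 and 347 CPM in replicates 1 to 4 and Lars2 at 71.8, 0, 412 and 153 CPM. In podocyte-like cells Gm23935 stood at 94.2, 73.6, 186 and 94.6 CPM and Lars2 at 36.3, 34.2, 56.1 and 31.2 CPM. In endothelial-like cells Gm23935 lay between 22.1 and 49.4 CPM and Lars2 between 8.19 and 16.7 CPM, below podocyte-like cells in every library. Mural-like cells of replicate 2 (37 cells) held no UMI of the 3 genes, and 3 UMIs would make 75.5 CPM there. Gm15564 lay between 12.8 and 28.0 CPM in podocyte-like cells and between 0 and 11.4 in endothelial-like cells, with 20.5, 0, 111 and 92.0 CPM in mural-like cells.

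Of the 5 members abundant enough to test, 2 passed the threshold upwards in podocyte-like cells (Kcnq1ot1, Neat1) and 0 downwards, where 25.1% and 20.9% of the 7499 genes tested did. In mural-like cells 2 were higher (Gm23935, Lars2) and 1 lower (Neat1), against 12.1% and 9.51% of all genes. In endothelial-like cells 0 were higher and 3 lower (Gm23935, Lars2, Neat1), against 27.7% and 21.3%. In tubular-like cells 1 was higher (Neat1) and 2 lower (Kcnq1ot1, Gm23935), against 27.2% and 26.5%, and in parietal epithelial-like cells 1 was higher (Kcnq1ot1) and 0 lower, against 10.6% and 4.63%. Gm15564 and Meg3 fell under the filter on low counts in every type.

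The mural-like calls of Gm23935 (log2 fold change 2.25, SE 0.303, adjusted p = 3.19e-09, higher in 3 of 4 libraries) and Lars2 (2.49, SE 0.368, adjusted p = 5.17e-08, 3 of 4) came from few cells. 5 mural-like barcodes held 86.3% of the Gm23935, 83.3% of the Lars2 and 88.9% of the Gm15564 UMIs of that type. 1 of them, in replicate 4, also held 56 podocyte marker UMIs of 3798. Without the 1647 cells with markers of 2 types, the mural-like log2 fold changes were 2.78 for Gm23935 and 2.81 for Lars2. Without the 117 barcodes that carried 3 or more Gm23935 UMIs, an alternative added after seeing the data, the mural-like log2 fold change of Gm23935 was 0.22 (adjusted p = 0.807). Its endothelial-like value was then -0.61 (adjusted p = 0.0841), against -1.77 (SE 0.311, adjusted p = 1.32e-06, lower in 3 of 4 libraries) with them, and its tubular-like value -0.58 (adjusted p = 0.0863), against -1.01 (SE 0.283, adjusted p = 0.0017, lower in 3 of 4 libraries). DESeq2 gave -1.41 (adjusted p = 0.0509) in endothelial-like and -1.17 (adjusted p = 0.106) in tubular-like cells. The tubular-like value was also -0.78 (adjusted p = 0.0710) with at least 500 genes per barcode and -0.67 (adjusted p = 0.0799) with types from marker UMIs alone. Without the 117 barcodes Lars2 fell under the filter, so its mural-like call has no fitted value there. Neither has its endothelial-like call (-2.08, SE 0.396, adjusted p = 7.03e-06, lower in 4 of 4 libraries). Its mural-like level was 25.2 ± 20.1 CPM without these barcodes, against 159 ± 180 with them (SD, n = 4 libraries). Without them podocyte-like cells held 18.2 ± 2.73 CPM, parietal epithelial-like 34.6 ± 27.7, tubular-like 13.7 ± 7.83 and endothelial-like 10.6 ± 5.78. With no mitochondrial limit the tubular-like value of Gm23935 was 0.60 (adjusted p = 0.0136), on the other side of 0. Without replicate 3 it was -0.49 (adjusted p = 0.123), and without replicate 2 -2.24 (adjusted p = 1.03e-09). Lars2 in tubular-like cells (-0.50, adjusted p = 0.198) was -1.69 without replicate 2 (adjusted p = 0.000516). Gm23935 in podocyte-like cells (0.34, adjusted p = 0.118) was 0.70 without replicate 2 (adjusted p = 0.000237).

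Gm23935, Lars2 and Gm15564 were concentrated in few barcodes and in the same ones. The 117 barcodes with at least 3 Gm23935 UMIs were 0.836% of the kept cells and held 58.0% of the Gm23935, 50.9% of the Lars2 and 64.4% of the Gm15564 UMIs. Floors of 2 and 5 UMIs gave 212 and 53 barcodes with 69.8% and 44.8% of the Gm23935 UMIs. Of the 117, 105 were podocyte-like, 5 mural-like, 3 parietal epithelial-like, 2 endothelial-like and 2 tubular-like. They made up 1.03% ± 0.244 of podocyte-like cells (0.836% to 1.39% in 4 libraries), 1.29% ± 1.13 of mural-like and 0.916% ± 0.718 of parietal epithelial-like cells, with overlapping ranges, and 0.140% ± 0.171 of endothelial-like and 0.117% ± 0.234 of tubular-like cells. Since Gm23935 chose them, its own level there is a description.

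Within these 117 barcodes a Lars2 UMI was found in 74.4% and a Gm15564 UMI in 56.4%, against 2.03% and 0.670% of the other kept cells. The barcode with most Gm23935, a podocyte-like cell of replicate 3, held 95 of its 1002 UMIs from that gene (9.48%), 27 from Lars2 and 13 from Gm15564, with 56 from Malat1. A mural-like barcode of the same replicate held 45, 23 and 7 of 798 UMIs, and a tubular-like barcode of replicate 2 held 36, 19 and 10 of 4021. Podocyte markers had 0 UMIs in that mural-like barcode and 21 in the tubular-like one. Another mural-like barcode, of replicate 4, held 22 Gm23935 and 56 podocyte marker UMIs of 3798. Whether barcodes with markers of another type held more than 1 cell was not tested. Across the 117 barcodes, which share 4 libraries and differ in depth, Pearson's r with the Gm23935 count was 0.91 for Lars2 and 0.88 for Gm15564 (Spearman's rho 0.60 and 0.59), against 0.11 for total UMIs. Over whole libraries the ratio of Lars2 to Gm23935 UMIs lay between 0.332 and 0.481 and that of Gm15564 to Gm23935 between 0.141 and 0.1901.

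**Figure D2:**
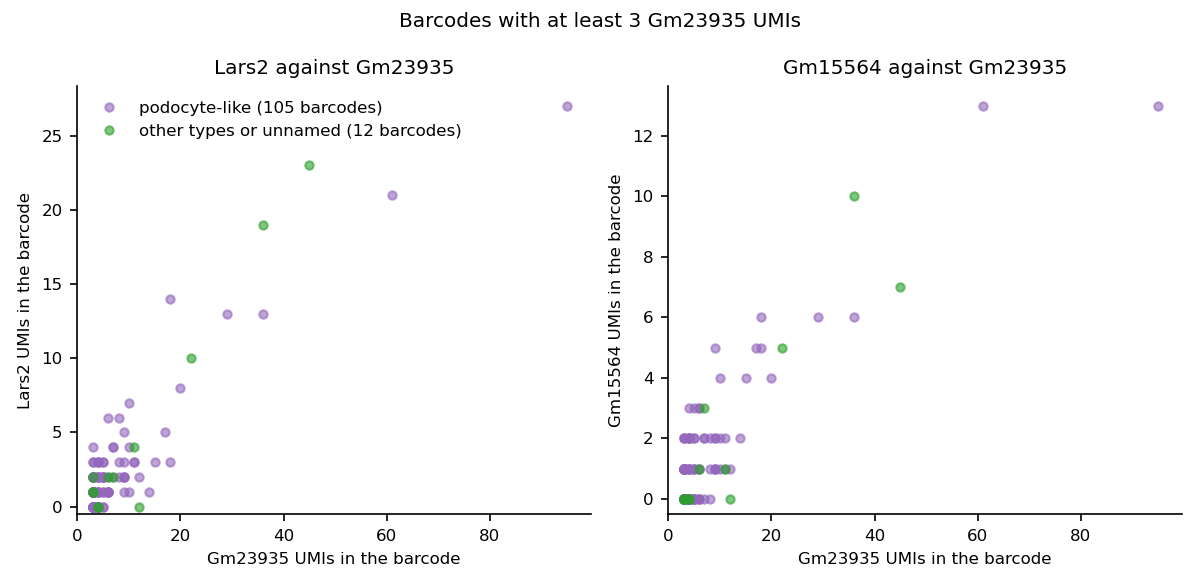
UMIs of Lars2 (left) and Gm15564 (right) against UMIs of Gm23935 in each of the 117 barcodes that held at least 3 Gm23935 UMIs. Each point is 1 barcode (overlapping points look darker), 105 podocyte-like and 12 of other types. Barcodes with most Gm23935 also held most Lars2 and Gm15564, up to 95, 27 and 13 UMIs in 1 barcode.

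In podocyte-like cells the pairing was also seen at equal depth. Thinned to 500 UMIs, 26.4% of the 337 cells with a Gm23935 UMI had a Lars2 UMI, against 0.654% of the 9475 without one. For Gm15564 these shares were 15.1% and 0.169%. For Neat1 they were 37.4% and 17.1%, and for Kcnq1ot1 18.7% and 16.8%.

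The podocyte-like carriers of Gm23935 differed from other podocyte-like cells in more than the 3 genes. Their median depth was 690.0 UMIs, against 1023 in the others, and their median mitochondrial share 7.11%, against 4.24%. Neat1 stood at 2234, 2176, 1545 and 1944 CPM in carriers of replicates 1 to 4, against 493, 325, 406 and 531 CPM in the others. Malat1 stood at 26072 ± 1602 CPM, against 16977 ± 1644, and Kcnq1ot1 at 714 ± 198 CPM, against 593 ± 68.7 (SD, n = 4 libraries). The Neat1 and Malat1 values of carriers lay above those of the other cells without overlap, and the Kcnq1ot1 ranges overlapped. Ribosomal protein genes took 3.28% ± 0.170 of the carriers' UMIs, against 4.66% ± 0.406, and the mitochondrial rRNA mt-Rnr2 stood at 52473 ± 6861 CPM, against 30229.6 ± 2044. Podocyte markers took 2.88% ± 0.172 of the UMIs, against 2.07% ± 0.157. Endothelial markers had no UMI in the carriers, against 0.00418% ± 0.00179 of the UMIs in the others. Mural markers took at most 0.00608% of the carriers' UMIs in a library, against 0.00453% ± 0.000558. Such shares are near the floor at the carriers' depth, so no absence is read from them. Tubular markers took 0.0216% ± 0.0201, against 0.0104% ± 0.00470. Gm42418, an intergenic noncoding gene on chromosome 17 that overlaps an annotated rRNA gene, stood at 1751 ± 613 CPM in carriers, against 1719 ± 274. Its neighbour Gm26917 stood at 306 ± 201 CPM (60.8 to 552 in a library), against 34.4 ± 11.8. The mitochondrial rRNA mt-Rnr1 stood at 3570 ± 343 CPM, against 2180 ± 204. Both mitochondrial rRNAs are part of the mitochondrial share, so these are not separate differences. Rn18s-rs5 averaged less in carriers, 121 ± 117 CPM, against 232 ± 47.0, with overlapping ranges. These are the values of 19 to 30 carriers a library, so the levels of Gm26917 and Rn18s-rs5 in carriers rest on few UMIs. The part of depth and mitochondrial share in these differences was not tested.

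Podocyte-like cells clustered again without the members gave 4 subclusters. Gm23935 and Lars2 were the leading genes of subcluster 2 (2536 cells). Neither had been used to make it, but the members were selected in part as marks of a podocyte subset in these cells. Their place there is thus a description. In subcluster 2 Gm23935 stood at 364.3, 363.6, 843 and 540.4 CPM in replicates 1 to 4. In subcluster 0 it lay between 19.6 and 29.8 CPM, in subcluster 1 between 21.6 and 43.5 and in subcluster 3 between 0 and 120.4 CPM. Every library of subcluster 2 lay above every library of the others. Lars2 averaged 161 ± 55.3 CPM in subcluster 2, against 14.7 ± 3.23, 13.9 ± 3.14 and 8.54 ± 17.1 CPM in subclusters 0, 1 and 3 (SD, n = 4). Gm15564 averaged 89.7 ± 25.7 CPM, against 3.49 ± 2.20, 2.44 ± 0.535 and 4.07 ± 8.13 CPM.

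The other members did not share a difference of that size. Malat1 averaged 18297 ± 1776 CPM in subcluster 2, against 16827 ± 1468 in subcluster 0, and the ranges overlapped. Kcnq1ot1 averaged 538 ± 130.1 CPM, against 667 ± 73.1, and Neat1 518 ± 74.0, against 418 ± 83.5, also with overlap. Within every library, however, Malat1 and Neat1 were higher in subcluster 2 than in subclusters 0 and 1, and Kcnq1ot1 was not. Gm42418 ran the other way, at 788, 882, 1174.5 and 864 CPM in subcluster 2, against 1372 to 2026 CPM in subcluster 0. Subcluster 2 was shallow, with library medians of 645 to 795.5 UMIs, against 1686 to 1931.5 in subcluster 0 and 833 to 1016 in subcluster 1, and its median mitochondrial share was 5.37% ± 0.352, against 3.56% and 4.20% in subclusters 0 and 1. Its other leading genes included Itga3, the integrin subunit that podocytes use on the glomerular basement membrane, and Lpl, which encodes lipoprotein lipase. 89 of the 105 podocyte-like carriers lay in it, yet they were 3.51% of its cells. Subcluster 3 drew 602 of its 633 cells from replicate 4, so its values in the other 3 libraries rest on 5 to 14 cells. At a coarser resolution subcluster 2 was not separate: only 2 subclusters were made, and the higher one exceeded the other 3.16-fold for Gm23935, 1.34-fold for Lars2 and 5.43-fold for Gm15564, against 10.2-, 10.9- and 22.1-fold over the next subcluster at the finer one.

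**Figure D3:**
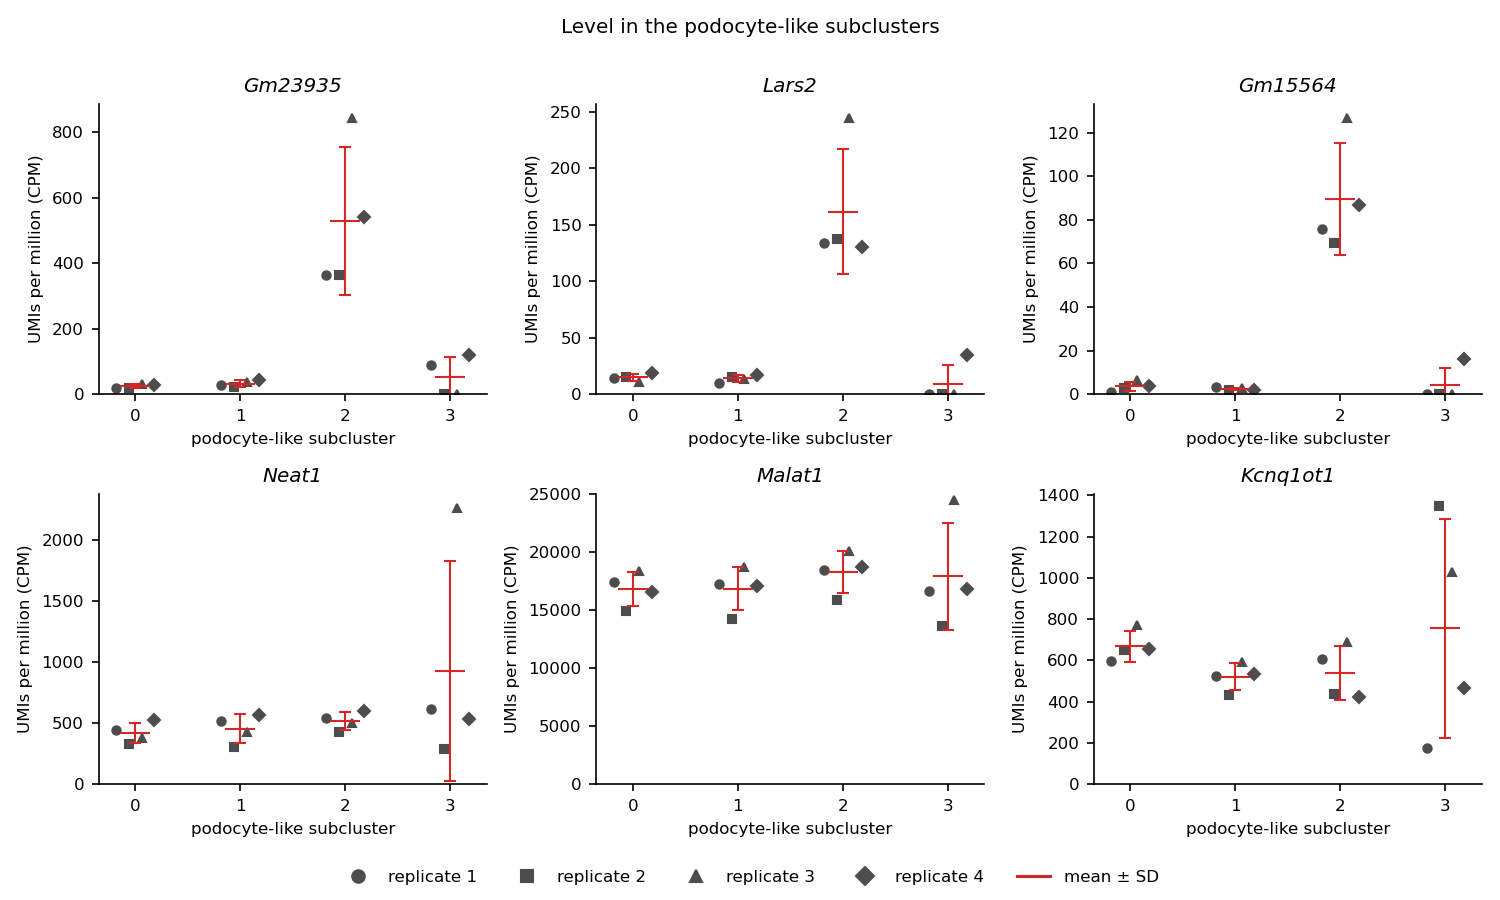
Level (CPM, linear axes from 0) of 6 transcripts in the 4 podocyte-like subclusters. Each symbol is 1 Drop-seq library and the red marks give the mean and SD of 4 libraries, with bars clipped at 0. Gm23935, Lars2 and Gm15564 stand high in subcluster 2 in all 4 libraries (364 to 843 CPM for Gm23935). The ranges of Malat1 and Kcnq1ot1 there overlap those of subcluster 0, and subcluster 3 holds 5 to 14 cells in 3 libraries.

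Levels of the 3 genes were higher in podocyte-like cells with few UMIs. In the lowest tertile of cells by UMIs (library medians of 538 to 698) Gm23935 stood at 268, 258, 404 and 336 CPM in replicates 1 to 4, against 22.1, 22.9, 30.2 and 29.8 CPM in the highest tertile (1455 to 2026). The middle tertile stood at 125, 63.4, 363 and 78.0 CPM, so that of replicate 3 was nearer to its lowest. Lars2 averaged 94.2 ± 11.1 CPM, against 13.0 ± 3.51, and Gm15564 53.5 ± 8.91 CPM, against 3.34 ± 1.11 (SD, n = 4). The lowest tertile lay above the highest in 4 of 4 libraries for all 3, without overlap. Malat1 averaged 18510.3 ± 2216 CPM, against 16281 ± 1446, and Neat1 548 ± 92.1, against 442 ± 86.0, each above in 4 of 4 libraries but with overlapping ranges. Kcnq1ot1 averaged 550.2 ± 66.5 CPM, against 613 ± 70.4, below in 4 of 4 libraries. Counting 500 random UMIs was possible only in cells with at least 500, so the shallowest cells of the lowest tertile dropped out. It left Gm23935 at 294 ± 73.4, against 31.3 ± 9.44 CPM, Neat1 above in 3 of 4 libraries and Kcnq1ot1 below in 2 of 4. The mitochondrial share of the UMIs was 5.80% ± 0.232 in the lowest tertile and 3.61% ± 0.0908 in the highest, and podocyte markers took 1.98% ± 0.182 and 2.16% ± 0.143. Part of that mitochondrial share is mt-Rnr2, at 44123 ± 2754 CPM in the lowest and 24321 ± 1324 CPM in the highest tertile. The summed endothelial, mural and tubular markers each took at most 0.0219% of the UMIs of any tertile in any library. Among cells with at most 10% mitochondrial UMIs, Gm23935 averaged 227 ± 29.5 CPM in the lowest tertile, against 26.3 ± 4.30 in the highest, where without that limit it averaged 317 ± 67.6 and 26.3 ± 4.33.

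**Figure D4:**
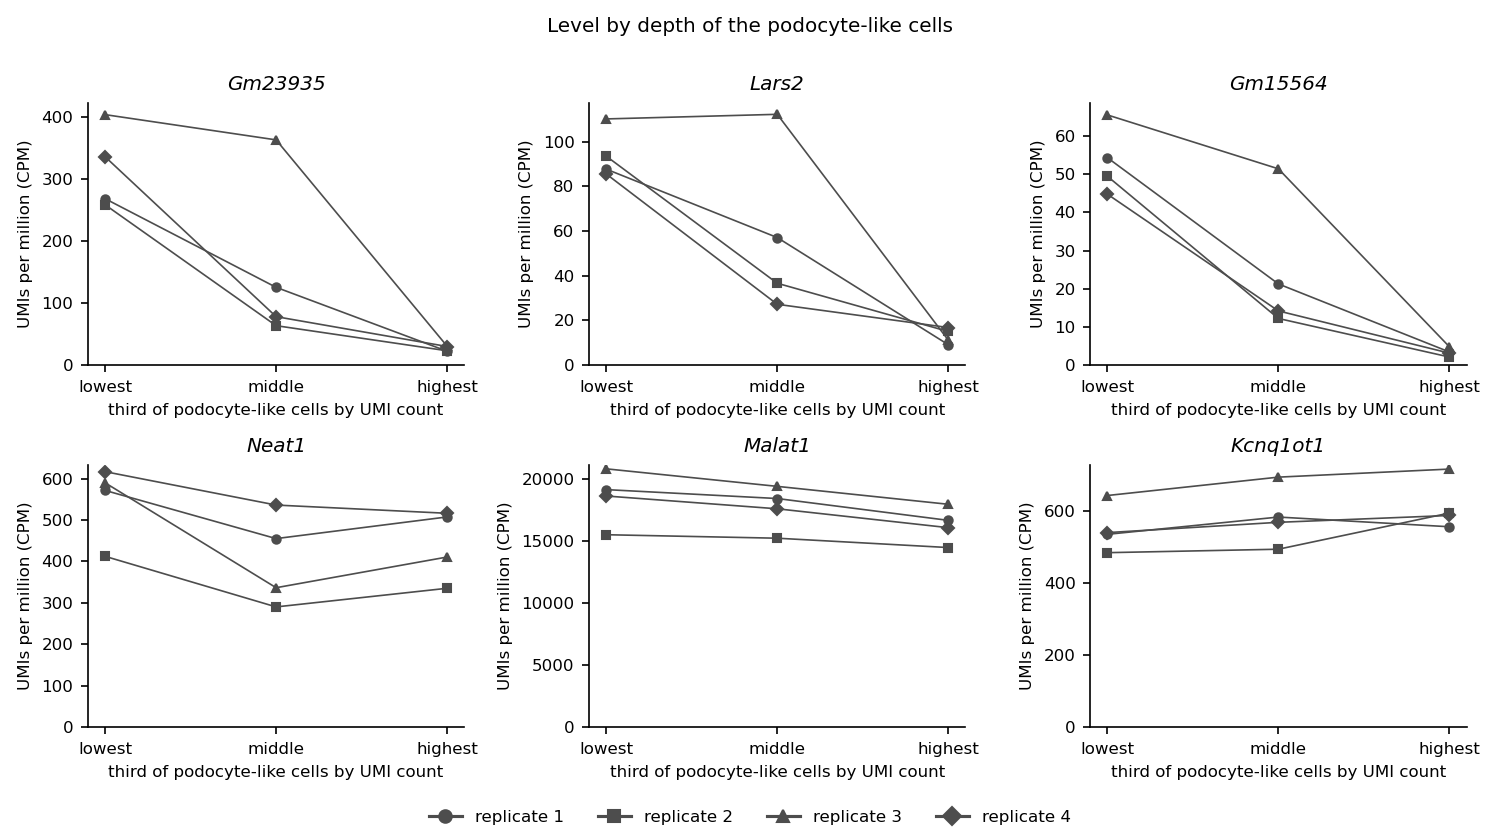
Level (CPM, linear axes from 0) of 6 transcripts in the tertiles of podocyte-like cells with the lowest, middle and highest UMI count, cut within each library. Lines join the tertiles of 1 Drop-seq library. Gm23935 stands at 258 to 404 CPM in the lowest tertile and at 22.1 to 30.2 CPM in the highest, while Kcnq1ot1 averages 550.2 and 613 CPM.

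The members also varied together with the Malat1 share of single podocyte-like cells. In the top quintile of cells by Malat1 share, Kcnq1ot1 stood at 849, 859, 1075 and 1068 CPM in replicates 1 to 4, against 516, 492, 638 and 488 CPM in the other cells, with Malat1 itself left out of the totals. Neat1 averaged 593 ± 116 CPM, against 430.4 ± 90.0, and Gm23935 332 ± 266, against 70.8 ± 14.7, with replicate 3 alone at 731 CPM in the top quintile. Lars2 averaged 119 ± 77.1 CPM, against 24.3 ± 2.91, and Gm15564 59.8 ± 41.0, against 9.88 ± 2.37. All 5 were above in 4 of 4 libraries, and only the Neat1 ranges of these 5 overlapped. The top quintile had a median mitochondrial share of 5.29% ± 0.371, against 4.01% ± 0.160, and a median of 875 ± 128 UMIs, against 1076 ± 143, while podocyte markers took 2.02% ± 0.160 and 2.09% ± 0.155. Their part in these differences was not tested.

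The bulk libraries set dissociated, fixed cells against whole glomeruli. With 1 library a group there is no test, only the values, a ratio of TMM-scaled CPM and its exact 95% interval for counting error. Lars2 had 12801 reads in dissociated cells, against 1393 in whole glomeruli, a ratio of 13.1 (12.4 to 13.9). Gm23935 had 5250 reads, against 647, a ratio of 11.6 (10.7 to 12.6). Gm15564 had 356 reads, against 7, a ratio of 72.6 (34.9 to 182). These 3 each had a higher ratio than at least 99.6% of the 12692 tested genes. Neat1 went the other way, with 19504 reads in dissociated cells, against 63693 in whole glomeruli, a ratio of 0.437 (0.430 to 0.444), below which 16.3% of the tested genes lay. Malat1 had 13393 reads, against 13050, a ratio of 1.47 (1.43 to 1.501), and Kcnq1ot1 591 reads, against 785, a ratio of 1.07 (0.964 to 1.20). Meg3 had 3 and 6 reads and was not tested.

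Thus 3 of 6 tested members were past 2-fold higher and 1 past 2-fold lower, where 10.6% and 19.1% of all tested genes were. In bulk, fewer cells of a type and less RNA per cell cannot be told apart. Of the podocyte markers 6 of 8 were past 2-fold higher and 0 lower in dissociated cells (median log2 ratio 1.09), and of the endothelial markers 0 were higher and 6 of 8 lower (median -1.64). Of the 7 mural markers tested 3 were lower, of the 9 tubular markers 3, and of the 5 immune markers tested 4 were higher. The summed endothelial markers stood at 1644 CPM, against 4997, and the summed mural markers at 576 CPM, against 2708, with no marker at 0. The summed podocyte markers stood at 43827 CPM, against 23111. What the change in cell types contributed was not tested, and dissociation, sorting, fixation and RNA amount cannot be told apart in this pair. Scaled by total reads alone, the Kcnq1ot1 log2 ratio was -0.20 in place of 0.10, with the median of all genes at -0.32.

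**Figure D5:**
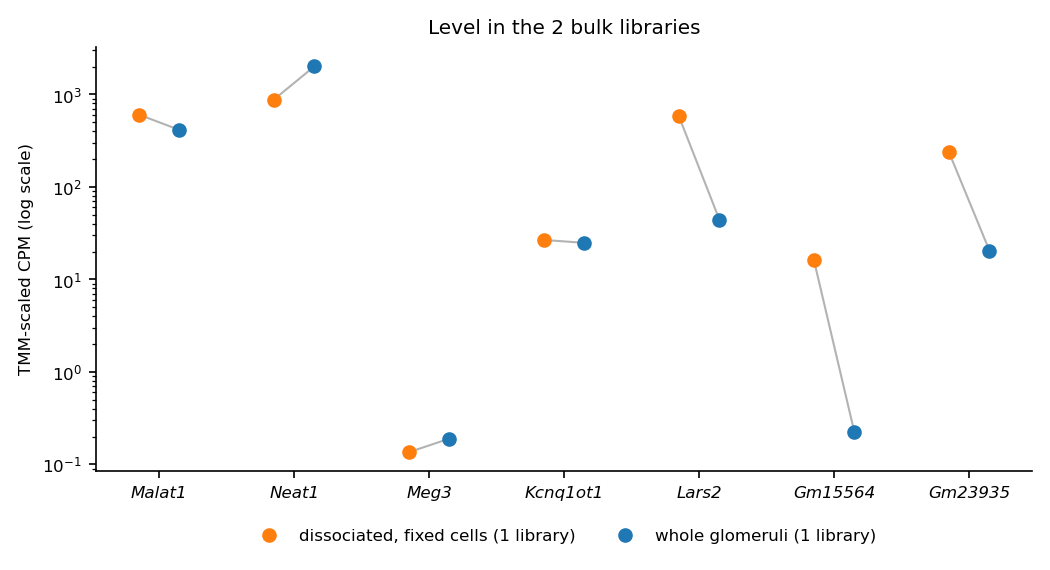
TMM-scaled CPM (log axis) of the 7 transcripts in the bulk library of dissociated, fixed cells (left point of each pair) and the bulk library of whole glomeruli (right point), 1 library each, so there is no error bar. Lars2, Gm15564 and Gm23935 are 11.6 to 72.6 times as high in dissociated cells, and Neat1 is lower there (882 against 2018 CPM).

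Genes of the same pathways, taken from lists, did not share one direction, and their counts stand beside 10.6% higher and 19.1% lower among all tested genes. Among rRNA and rRNA-like rows, all 4 with enough reads were past 2-fold higher in dissociated cells (median log2 ratio 2.50, against -0.02 over all tested genes): Rn18s-rs5 with 24402 reads, against 4059, Gm26917 with 4304, against 1390, and the mitochondrial rRNAs mt-Rnr1 (15517, against 3281) and mt-Rnr2 (17097, against 5140). Gm26917 is annotated as a long intergenic noncoding gene beside an rRNA gene on chromosome 17. Of 18 mitochondrial aminoacyl-tRNA synthetases besides Lars2, 2 were past 2-fold higher, Nars2 (1754 reads, against 728) and Fars2 (825, against 571), and 0 lower, with a median log2 ratio of -0.14. Of 14 paraspeckle proteins 1 was higher (Sfpq, a core component, 7457 reads against 5225) and 1 lower (Rbm4b), while Nono, another core component, had a log2 ratio of -0.10. Of 22 nuclear speckle proteins 2 were higher, the splicing kinase gene Clk1 (22068 reads, against 9794) and Tra2b, and 1 was lower, Pnisr. Of 19 other long noncoding RNAs tested, 6 were higher, led by the snoRNA host genes Snhg1 (2267 reads, against 459) and Snhg12, and 5 lower, led by Snhg11 (0 reads, against 143) and Peg13 (1436, against 7670.0). In the Kcnq1 domain Cdkn1c was higher (38629 reads, against 15443) and Slc22a18 lower (11 reads, against 565).

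Across cell types the same lists gave other counts, beside medians over all genes of 0.01 in podocyte-like, 0.00 in endothelial-like and -0.05 in tubular-like cells. The shares called among all genes were 25.1% higher and 20.9% lower for podocyte-like cells, 27.7% and 21.3% for endothelial-like cells, and 27.2% and 26.5% for tubular-like cells. In podocyte-like cells Cdkn1c averaged 7462 CPM, against 544 CPM in tubular-like cells, with a log2 fold change of 2.53, and 2 of 5 tested genes of the Kcnq1 domain were higher, the other being Cd81 (0.66). Cdkn1c was also among the podocyte markers that named the cells, so its own value there is a description. Paraspeckle proteins had 2 of 12 higher (Fam98a among them) and 3 lower in podocyte-like cells, and nuclear speckle proteins 5 of 22 higher and 3 lower, near the shares of all genes. In endothelial-like cells 14 of 22 nuclear speckle genes were higher and 0 lower (median log2 fold change 0.35), and in tubular-like cells 0 were higher and 16 lower (median -0.59). Of 6 tested rRNA and rRNA-like rows, which include long intergenic noncoding genes such as Gm42418, 0 were higher and 4 lower in podocyte-like cells: mt-Rnr1 (-1.18), mt-Rnr2 (-0.60), Gm42418 (-0.44) and Rn18s-rs5 (-0.42). Nars2 was the 1 gene of 7 tested mitochondrial synthetases that was higher in podocyte-like cells (1.51, SE 0.228, adjusted p = 3.55e-08).

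Set side by side, the CPM values of the members differed between the assays. Over all barcodes, Malat1 averaged 16794 ± 1914 CPM in Drop-seq (SD, n = 4), and 606 CPM in the bulk library of dissociated cells. Neat1 averaged 419.7 ± 89.4 CPM in Drop-seq and 882 CPM in bulk, and Kcnq1ot1 485 ± 57.0 and 26.7 CPM. Lars2 averaged 42.8 ± 10.6 CPM in Drop-seq and 579 CPM in bulk, Gm23935 115.5 ± 42.0 and 238 CPM, and Gm15564 18.2 ± 5.02 and 16.1 CPM. Malat1 and Kcnq1ot1 were thus lower in bulk, Neat1, Lars2 and Gm23935 higher, and Gm15564 within the Drop-seq range. The bulk values are TMM-scaled (factor 0.900) and the Drop-seq values are not. A bulk read count also grows with transcript length and a UMI count does not, so these levels are not on 1 scale. Per kilobase of annotated exon, bulk dissociated cells held Malat1 at 86.8 CPM, Lars2 at 52.2, Neat1 at 42.5, Gm15564 at 19.6, Kcnq1ot1 at 0.287 and Meg3 at 0.00750 CPM. The order of these values depends on the length used. For Lars2 it was 11089 bases, while its longest transcript has 3894, and for Neat1 20771 bases, the long isoform included. Gm23935 reached 4167 CPM per kilobase over its 57 bases, a length too short for this scale to be compared with the others.

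Over the 20 sums of 5 types in 4 libraries, Lars2 and Gm23935 had the highest correlation of any pair of members (Pearson's r of log2 CPM 0.93), followed by Lars2 and Gm15564 (0.85) and Gm15564 and Gm23935 (0.84). The sums share libraries and depth, so this is a description. Among 6978 genes other than the members, those most like Malat1 were Gm37376 (0.95) and Hnrnpl (0.93). Gm37376 lies inside Malat1 on the opposite strand (chr19:5801941-5802393), so reads of both may not have been told apart. Kcnq1ot1 was most like Nab2 (0.95), Ephx1 (0.95) and Lats2 (0.94), and Neat1 most like Apmap (0.80). Gm23935 was most like Phf1 (0.82), and Lars2 and Gm15564 most like Efemp2 (0.79 and 0.75), each below the values among these 3 members.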

How the data were processed

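The authors deposited Drop-seq UMI counts per gene and barcode and bulk read counts per gene; the submitters' processing notes name STAR and HTSeq with no role or version, and the build, annotation and strand setting are not given in the sources used here. Reads that HTSeq gave to no gene (6.14% dissociated, 9.68% whole), to more than 1 gene (3.87%, 3.77%) or to more than 1 place (14.7%, 9.47%) were left out, which left 24555632 and 28407317 counts. Types came from scanpy 1.11.5 (2000 variable genes, 30 components, Leiden resolution 1.0). UMI sums of types with at least 20 cells in 3 libraries were tested with edgeR 4.0.16 (TMM, filterByExpr, library as a block because the cells of a library share 1 preparation, Benjamini-Hochberg over 7499 genes, threshold 0.05). DESeq2 1.42.0 was an alternative. Bulk calls needed 100 counts and a 2-fold ratio, with prior count 2. On simulated data the fit recovered 70% of 2-fold and 92% of 4-fold changes in podocyte-like cells, and 24% and 64% in mural-like cells (6465 and 6504 genes). It made 15 and 11 false calls there. The simulated counts had 1 profile for all types, a fixed spread and no library effect, and no member was changed. UMIs concentrated in few barcodes, as for Gm23935 and Lars2, were not simulated, so these rates do not carry over to them. Intervals cover counting error only. Members and lists were chosen with earlier results of these data known, and so was the floor of 3 Gm23935 UMIs. Of each list the genes named are at most 4 past the threshold with the largest change, and for each member the genes most like it. Nono in bulk, and Gm42418, Gm26917, Rn18s-rs5 and the mitochondrial rRNAs by cell, were named beside them, after their values were seen. Sequences are from the GENCODE transcripts, compared with blastn 2.17.0.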

Additional observations from a re-analysis of the deposited data

Results flagged for a closer look

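2 of 30 sets of 4 libraries held a library far from the other 3 by Dixon's criterion; chance sets about 1 in 20 such groups apart. Kcnq1ot1 in mural-like cells of replicate 3 stood at 554 CPM, above 252 to 296 CPM in the other replicates, on 35 UMIs. Gm23935 in parietal epithelial-like cells of replicate 3 stood at 234 CPM, above 48.0 to 75.6 CPM, on 22 UMIs.

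The 888 barcodes left out for fewer than 300 genes held a signal that the comparisons did not use. Gm23935 averaged 662 ± 351 CPM in them (SD, n = 4 libraries), against 99.9 ± 39.9 in the kept cells. Lars2 averaged 236 ± 143 CPM, against 37.2 ± 10.4, and Gm15564 90.2 ± 77.0, against 16.1 ± 4.27. These means rest on 185, 67 and 27 UMIs. Malat1 averaged 30450.2 ± 2038 CPM there, against 16695 ± 1827, and mt-Rnr2 165432 ± 46847, against 35193 ± 1325, while Gm42418 averaged 1518 ± 345, against 1844 ± 308. In the 584 barcodes over 20% mitochondrial UMIs Gm23935 averaged 219 ± 111 CPM and Kcnq1ot1 88.4 ± 35.5 CPM.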

How the results depend on the processing

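Across types, 6 member calls were higher and 6 lower. A mitochondrial limit of 10% gave 3 and 3, as Lars2 and Gm23935 fell under the filter on low counts and Kcnq1ot1 in parietal epithelial-like cells lost its call (0.40, adjusted p = 0.211). Against all other kept cells summed there were 10 lower calls, and without the 117 Gm23935 carriers, added after seeing the data, 2. Without the replicate block there were 6 higher and 5 lower calls, so the block changed 1 call, Neat1 in endothelial-like cells. Leaving out 1 replicate in turn gave 5 to 7 higher and 4 to 6 lower calls. Kcnq1ot1 and Neat1 in podocyte-like and tubular-like cells, and Neat1 in mural-like cells, kept direction and call in all 17 alternatives. Lars2 in endothelial-like and mural-like cells kept them in the 14 that gave it a value. The setting without the 117 carriers is not among these 14, and there mural-like Lars2 stood at 25.2 ± 20.1 CPM, against 159 ± 180 with them. The tubular-like Gm23935 value turned to 0.60 with no mitochondrial limit, and the parietal epithelial-like Kcnq1ot1 value to -0.28 against all other kept cells summed. Gm23935 in podocyte-like cells, at 0.34 and not past the threshold, passed in 4 alternatives (0.70 to 0.76). With the coarser resolution the subcluster ratios were 3.16 for Gm23935, 1.34 for Lars2 and 5.43 for Gm15564. Types from marker UMIs alone left too few parietal epithelial-like cells to test. The bulk counts of 3 higher and 1 lower held under all 5 alternatives, and the counts of members above in every library by depth and by Malat1 share moved by at most 1. The cause of these changes was not tested, beyond the smaller sets that the filters leave. Depth left Gm15564 and Meg3 under the filter across types.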
